A study of Mus musculus with 6 samples.

Results

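Axon guidance cues are ligand and receptor pairs that steer migrating cells and growth cones by attraction or repulsion, and the guidance genes described here are the Eph receptors, the ephrins, the SLIT and ROBO genes, and the netrins with their UNC5 and DCC receptors. They were taken as a fixed list of 37 mouse gene symbols, defined by gene family rather than by a threshold on measured values, though chosen with earlier results of these data known, and all 37 were found among the 36528 gene models of the files. They were measured in polyadenylated RNA of primary mouse melanocytes from skin, in 6 libraries, of which 3 carried the label BAP1 KO and the others the label WT. BAP1 is a nuclear deubiquitinase that removes ubiquitin from histone H2A, and KO stands for knockout. The labels give no allele, Cre driver, strain, age, clone or culture number for either group, so nothing further that the groups share can be stated. No label says that the libraries of a group came from separate cultures or animals, so the p-values reflect only the spread among 3 libraries a group, and that spread may be technical.

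Eph receptors are receptor tyrosine kinases that bind ephrins on the surface of neighbouring cells. Ephrins of the A class are held by a lipid anchor and those of the B class span the membrane, and contact of receptor and ephrin usually makes cells part from each other. SLIT proteins are secreted repellents read by ROBO receptors, and netrins are secreted proteins that attract through DCC or repel through UNC5 receptors. Neural crest cells, from which melanocytes arise, meet ephrin and SLIT cues as they migrate, and Eph receptors are also abundant in epidermal keratinocytes.

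Libraries labelled BAP1 KO held 37934757, 43773769 and 36447473 uniquely aligned reads, and those labelled WT held 33987690, 37248641 and 40025282. Bap1, the targeted gene, was read at 73.6, 77.3 and 72.5 CPM in the 3 BAP1 KO-labelled libraries, against 55.7, 55.6 and 55.8 CPM in the 3 WT-labelled ones, a log2 fold change of 0.42 (SE 0.042, edgeR adjusted p = 3.89e-06). Reads of the targeted gene were thus higher, not lower, with the BAP1 KO label. The counts pool all its exons, and every direction below rests on the labels alone. The labelled cell type was checked by 12 melanocyte markers, which were read in every library, at a summed 63760.0 to 64580.0 CPM with the BAP1 KO label, against 6656 to 6748 CPM with the WT label. All 12 were higher under the BAP1 KO label. Markers of other skin cells were also present. The 18 keratinocyte markers summed to 612 to 658 CPM with the BAP1 KO label, against 10720.0 to 10890.0 CPM with the WT label, and all 17 tested were lower, Krt1 being near 0 in every library. The 14 fibroblast markers summed to 184 to 191 CPM with the BAP1 KO label, against 1191 to 1226 CPM with the WT label, with 13 lower and 1 higher. Values are CPM, counts scaled to library size by TMM, a factor per library that balances the bulk of the genes.

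Most guidance genes were lower under the BAP1 KO label. Of the 37, 29 passed the filter on low counts and were tested, and 25 of these were lower, 3 were higher and 1 did not pass the threshold of an edgeR adjusted p under 0.05. The comparison as a whole was broad, with 81.5% of 17121 genes called, 42.1% lower and 39.4% higher, so a called guidance gene is not in itself unusual. More than 2-fold lower were 23 of the 29, where the share over all tested genes was 22.7%, and more than 2-fold higher were 3, where that share was 13.9%. The median log2 fold change was -1.82 over the 29, and -0.03 over all tested genes. Among the 29, Ephb1, Robo2, Robo3 and Dcc passed the filter only through the group in which they were higher, and the other 25 had at least 10 reads in every library, with 22 lower, 2 higher and 1 not past the threshold. Robo2, Robo3 and Dcc are in the count of 23 more than 2-fold lower, and Ephb1 is in the count of 3 more than 2-fold higher. Passing the filter in that way favours a large fold, so for these genes the fold is no separate result. The median of the 29 includes them too. For none of the 29, these genes included, did the groups overlap, as was so for 82.7% of all tested genes. The summed level of the 37 genes stood at 379 ± 11.9 CPM with the BAP1 KO label, against 1908 ± 36.4 CPM with the WT label (SD, n = 3 each). Over these libraries the sum of the keratinocyte markers was 16.9-fold lower, the fibroblast markers 6.45-fold lower and the melanocyte markers 9.58-fold higher under the BAP1 KO label, and their part in these differences was not tested. In bulk RNA, fewer cells of a type and less RNA per cell cannot be told apart.

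**Figure D1:**
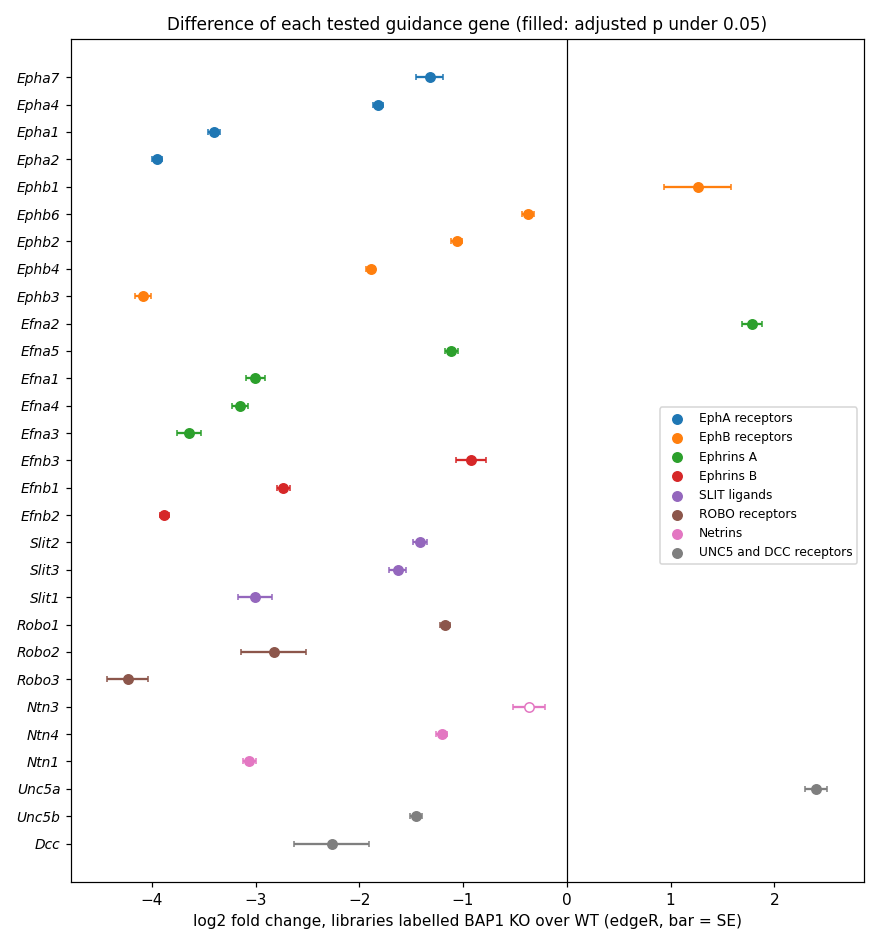
Log2 fold change of each tested guidance gene, libraries labelled BAP1 KO over those labelled WT, with genes grouped by class down the page, bars for the SE, and an open symbol for the gene that did not pass an adjusted p of 0.05 (Ntn3). Efna2, Unc5a and Ephb1 lie to the right of 0, and the other 26 genes lie to its left, down to -4.23 for Robo3.

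The stretches before the annotated starts of some of the guidance genes are given here, picked by hand from both directions. Epha2, Efnb2, Efna1, Efna3 and Efna4 were lower and Efna2 and Unc5a higher under the BAP1 KO label. They were not picked by size of difference, and Ephb3 (-4.09) and Epha1 (-3.40), also lower, are not printed. Each is the 250 bases before a RefSeq start on GRCm38.p6, read 5′ to 3′ on the strand of the gene, and the most upstream listed start was used. Of 62 windows checked, those of the guidance genes and of the signalling partners named below, 52 led into the opening part of an annotated transcript of the gene. The starts are thus annotated ones, and not all were borne out by that check. The window of Unc5a lies within the span that the RefSeq gene table gives the gene, which begins further upstream, at 54945151. Capitals mark the GC box GGGCGG, the letters that SP1-type factors bind, on either strand.
Epha2 (chr4:141300971-141301220, plus strand): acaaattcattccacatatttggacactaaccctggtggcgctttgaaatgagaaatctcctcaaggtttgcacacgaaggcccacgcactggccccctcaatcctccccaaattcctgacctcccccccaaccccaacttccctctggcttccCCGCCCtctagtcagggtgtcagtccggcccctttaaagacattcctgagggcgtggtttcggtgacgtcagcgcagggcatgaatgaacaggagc
Efnb2 (chr8:8661243-8661492, minus strand): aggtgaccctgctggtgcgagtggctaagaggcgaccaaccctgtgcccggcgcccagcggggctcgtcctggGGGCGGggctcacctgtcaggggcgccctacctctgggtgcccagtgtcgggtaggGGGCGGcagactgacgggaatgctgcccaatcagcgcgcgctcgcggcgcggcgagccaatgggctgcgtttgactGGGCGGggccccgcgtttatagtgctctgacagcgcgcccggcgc
Efna1 (chr3:89280952-89281201, minus strand): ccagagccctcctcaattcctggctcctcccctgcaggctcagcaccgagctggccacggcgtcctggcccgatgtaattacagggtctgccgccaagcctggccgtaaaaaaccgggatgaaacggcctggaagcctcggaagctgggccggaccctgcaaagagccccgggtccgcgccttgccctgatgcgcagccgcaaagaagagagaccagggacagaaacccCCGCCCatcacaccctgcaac
Efna3 (chr3:89322940-89323189, minus strand): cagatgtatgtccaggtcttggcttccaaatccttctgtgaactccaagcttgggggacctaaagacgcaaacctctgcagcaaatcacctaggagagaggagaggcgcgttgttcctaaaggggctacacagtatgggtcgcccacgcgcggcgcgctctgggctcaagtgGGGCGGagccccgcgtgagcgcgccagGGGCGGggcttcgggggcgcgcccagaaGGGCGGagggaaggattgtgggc
Efna4 (chr3:89338029-89338278, minus strand): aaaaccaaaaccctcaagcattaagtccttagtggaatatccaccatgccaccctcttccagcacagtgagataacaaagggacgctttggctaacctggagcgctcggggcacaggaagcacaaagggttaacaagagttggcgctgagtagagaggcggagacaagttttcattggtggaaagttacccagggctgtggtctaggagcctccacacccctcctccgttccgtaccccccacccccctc
Efna2 (chr10:80179232-80179481, plus strand): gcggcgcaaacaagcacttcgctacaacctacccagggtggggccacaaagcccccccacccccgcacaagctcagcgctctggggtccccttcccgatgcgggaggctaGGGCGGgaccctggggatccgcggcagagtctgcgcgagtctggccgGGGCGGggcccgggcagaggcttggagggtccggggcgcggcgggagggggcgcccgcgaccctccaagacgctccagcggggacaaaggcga
Unc5a (chr13:54949161-54949410, plus strand): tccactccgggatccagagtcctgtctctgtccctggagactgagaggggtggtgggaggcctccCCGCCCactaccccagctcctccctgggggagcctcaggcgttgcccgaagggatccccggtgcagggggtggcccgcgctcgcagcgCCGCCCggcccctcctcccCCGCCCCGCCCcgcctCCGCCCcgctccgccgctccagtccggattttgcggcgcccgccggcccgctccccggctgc

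The windows of the 5 lower genes held between 7 CpG dinucleotides, in Efna4, and 27, in Efnb2, and those of the higher genes Efna2 and Unc5a held 25 each. RefSeq windows were found for 32 of the 37 genes, and not for Efnb3, Slit1, Ntn1, Unc5d and Dcc. GGGCGG stood in the windows of 23 of the 32, of 16 of the 21 lower genes and of 2 of the 3 higher ones, and in 32.7% of 32851 windows of all genes, which include non-coding ones. The 32851 windows were not cut to 1 start per gene, whereas each of the 32 genes counts once, at its most upstream start. The shares over all windows here and below are thus not a like comparison for the guidance genes. Overlapping matches were counted, as in the run of GC boxes of Unc5a. Also searched on both strands, and in none of the printed windows, were the E-box forms CACGTG and CATGTG, which MITF-type factors bind, and TGANTCA, the letters bound by AP-1. CACGTG stood in the windows of Epha8 and Robo2 and in 6.02% of all windows. CATGTG stood in those of Ephb4 and Robo1 and in 12.3% of all. TGANTCA was in none of the 32 and in 6.75% of all.

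Eph receptors of the A class were led by Epha2, which was far lower under the BAP1 KO label. Epha2 (chromosome 4, 141301221 to 141329384 on GRCm38), the main Eph receptor of epidermis and of many carcinomas, was read at 33.2, 33.5 and 30.1 CPM in the 3 BAP1 KO-labelled libraries, against 492, 494 and 512 CPM in the 3 WT-labelled ones. The groups stood far apart and each was tight. The log2 fold change was -3.95 (SE 0.050, edgeR adjusted p = 2.89e-13), a level 15.5-fold lower under the BAP1 KO label. Epha1, a receptor first described in epithelia, was read at 9.89, 9.08 and 9.23 CPM in the 3 BAP1 KO-labelled libraries, against 102, 94.7 and 101 CPM in the 3 WT-labelled ones. It too was separated in every library, 10.6-fold lower at -3.40 (SE 0.057, edgeR adjusted p = 1.55e-12). Of its merged exons 6.01% overlap Zyx on the other strand, and the library kit does not mark strand. Epha4, which binds ephrins of both classes, stood at 12.8, 12.9 and 12.6 CPM in the 3 BAP1 KO-labelled libraries, against 45.7, 46.1 and 44.2 CPM in the 3 WT-labelled ones. All libraries labelled BAP1 KO lay below all labelled WT, and the log2 fold change was -1.82 (SE 0.049, edgeR adjusted p = 6.07e-11). Epha7 was the lowest of the 4 tested, between 1.56 and 1.95 CPM with the BAP1 KO label, against 4.10 and 5.09 CPM with the WT label, a log2 fold change of -1.32 (SE 0.13, edgeR adjusted p = 3.76e-06).

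The remaining A receptors were at or near the limit of detection and were not tested. Epha3 had 1 to 2 reads per library under the BAP1 KO label and 1 to 4 under the WT label, Epha8 had 1 to 3 and 1 to 4, and Epha6 at most 1 in any library. Epha10 had 0 reads in all 3 libraries labelled BAP1 KO, which allows up to 0.0254 CPM (3 reads over the group, counting error only), and 1 read in those labelled WT. Epha5, a receptor best known from brain, was the exception in direction, with 6, 12 and 16 reads with the BAP1 KO label, against 4, 3 and 3 reads with the WT label. The lowest library labelled BAP1 KO stood above the highest labelled WT, at a level far under 1 CPM.

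Among the B receptors Ephb3 was far lower and 3 others changed less. Ephb3 (chromosome 16, 21204620 to 21223309) was read at 4.69, 5.93 and 5.10 CPM in the 3 BAP1 KO-labelled libraries, against 87.4, 86.8 and 94.5 CPM in the 3 WT-labelled ones. That was 17.0-fold lower, at -4.09 (SE 0.078, edgeR adjusted p = 4.27e-12), the largest drop among the Eph receptors tested. Ephb4, the receptor of ephrin-B2 in vessels and epithelia, stood at 61.1, 63.4 and 59.4 CPM in the 3 BAP1 KO-labelled libraries, against 226, 225 and 232 CPM in the 3 WT-labelled ones. It was 3.71-fold lower, at -1.89 (SE 0.041, edgeR adjusted p = 1.07e-11), and yet had the highest level per length of all 37 genes under the BAP1 KO label. Ephb2 was read at 55.2, 54.6 and 48.9 CPM in the 3 BAP1 KO-labelled libraries, against 106, 109.7 and 116 CPM in the 3 WT-labelled ones. All libraries labelled BAP1 KO lay below all labelled WT, at -1.06 (SE 0.056, edgeR adjusted p = 1.63e-08). Ephb6, whose kinase domain is inactive, changed least, with 27.8, 28.8 and 25.4 CPM in the 3 BAP1 KO-labelled libraries, against 35.3, 34.5 and 36.3 CPM in the 3 WT-labelled ones. Its groups did not overlap, and the log2 fold change was -0.37 (SE 0.057, edgeR adjusted p = 1.16e-04). Ephb1 was the 1 higher Eph receptor, at 11, 16 and 15 reads with the BAP1 KO label, against 5, 5 and 7 reads with the WT label, a log2 fold change of 1.26 (SE 0.32, edgeR adjusted p = 0.00400) at under 0.5 CPM in every library. It passed the filter on low counts only through the libraries labelled BAP1 KO, where it was higher.

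**Figure D2:**
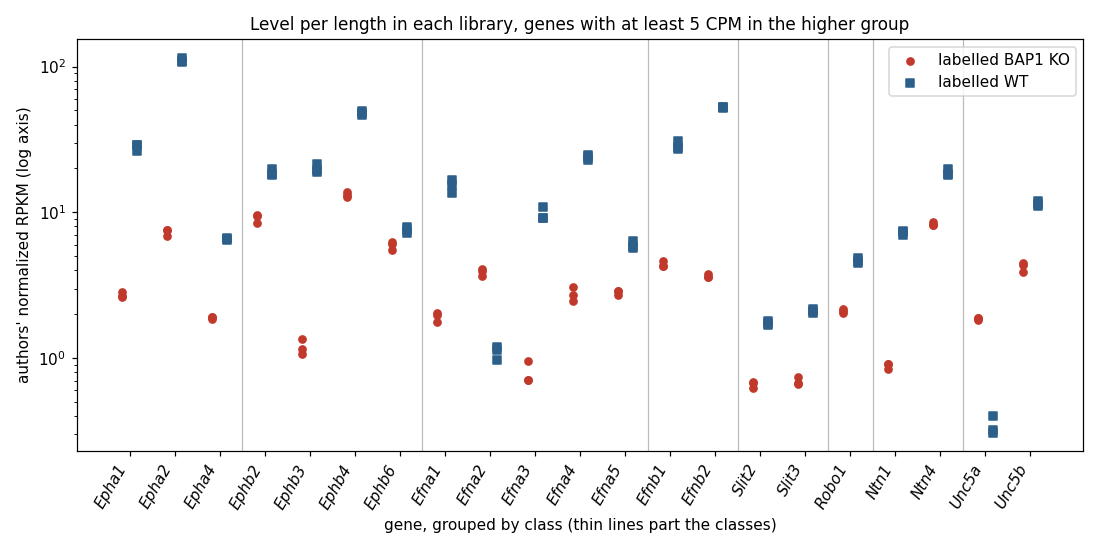
Level per length (the authors' normalized RPKM, log axis) in each library for the tested guidance genes that reached 5 CPM in the higher group, libraries labelled BAP1 KO as circles on the left of each gene and those labelled WT as squares on the right. Efna2 and Unc5a are the only genes shown in which the circles lie above the squares.

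The make-up of the Eph receptor class was also different between the labels. The RPKM values that the authors deposited correct for gene length, and by their sum the 14 Eph receptors stood at 41.8 ± 1.88 RPKM with the BAP1 KO label, against 240.4 ± 8.74 RPKM with the WT label (SD, n = 3 each). Epha2 made up 17.5% ± 0.27 of it under the BAP1 KO label and 46.1% ± 0.26 under the WT label. Ephb4 took 31.7% ± 0.59 of it under the BAP1 KO label and 20% ± 0.11 under the WT label. Ephb2 accounted for 21.8% ± 0.61 of it under the BAP1 KO label and 7.77% ± 0.21 under the WT label, and Ephb6 for 14.3% ± 0.29 of it under the BAP1 KO label and 3.15% ± 0.027 under the WT label. The order by level was thus Ephb4, Ephb2, Epha2 and Ephb6 under the BAP1 KO label, at mean levels of 13.2, 9.12, 7.32 and 5.98 RPKM, with no overlap between neighbours over the 3 libraries. Under the WT label it was Epha2, Ephb4, Epha1 and Ephb3, at 111, 48.2, 28.1 and 19.9 RPKM, also without overlap between neighbours.

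Of 5 ephrins of the A class, 4 were lower and Efna2 was higher. Efna1, the preferred ligand of EPHA2, was read at 3.45, 3.56 and 3.07 CPM in the 3 BAP1 KO-labelled libraries, against 27.2, 24.7 and 29.2 CPM in the 3 WT-labelled ones. It was 8.01-fold lower, at -3.00 (SE 0.090, edgeR adjusted p = 1.43e-10). Efna3 stood at 1.67, 2.25 and 1.67 CPM in the 3 BAP1 KO-labelled libraries, against 22.2, 22.6 and 25.9 CPM in the 3 WT-labelled ones. The drop was 12.5-fold, at -3.64 (SE 0.12, edgeR adjusted p = 2.45e-10), the largest among the A ephrins. Efna4 was read at 5.15, 4.20 and 4.57 CPM in the 3 BAP1 KO-labelled libraries, against 41.5, 39.9 and 41.9 CPM in the 3 WT-labelled ones. Its libraries were separated likewise, 8.88-fold lower at -3.15 (SE 0.074, edgeR adjusted p = 1.88e-11). Reads of Efna3 and Efna4 are uncertain in part, since 14.1% and 10.5% of their merged exons overlap the non-coding genes Gm15998 and 4731419I09Rik on the other strand. Gm15998 itself was read far below Efna3, at 0.234 CPM with the BAP1 KO label, against 0.511 CPM with the WT label. How reads in shared bases were counted is not known, so this level does not remove the uncertainty for Efna3, and it says nothing about Efna4. Efna5, a repellent best studied in the visual system, stood at 23.6, 22.2 and 23.7 CPM in the 3 BAP1 KO-labelled libraries, against 49.1, 54.0 and 47.1 CPM in the 3 WT-labelled ones. It differed least of the 4, at -1.11 (SE 0.061, edgeR adjusted p = 2.35e-08).

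Efna2 (chromosome 10, 80179482 to 80190010) went the other way. It was read at 8.22, 9.26 and 8.95 CPM in the 3 BAP1 KO-labelled libraries, against 2.24, 2.69 and 2.72 CPM in the 3 WT-labelled ones. Each library labelled BAP1 KO stood above each labelled WT, and the log2 fold change was 1.78 (SE 0.10, edgeR adjusted p = 3.08e-08), 3.44-fold higher. By level per length it ranked 8 of the 37 genes under the BAP1 KO label and 20 under the WT label.

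All 3 ephrins of the B class were lower, and Efnb2 most. Efnb2 (chromosome 8, 8617235 to 8661242), the transmembrane ligand of EPHB4, was read at 19.0, 20.0 and 19.0 CPM in the 3 BAP1 KO-labelled libraries, against 281, 291 and 283 CPM in the 3 WT-labelled ones. The difference was 14.7-fold, at -3.88 (SE 0.044, edgeR adjusted p = 1.77e-13). Efnb1, whose human counterpart is mutated in craniofrontonasal syndrome, stood at 14.7, 16.1 and 14.9 CPM in the 3 BAP1 KO-labelled libraries, against 97.9, 98.2 and 108 CPM in the 3 WT-labelled ones. It was 6.64-fold lower, at -2.73 (SE 0.060, edgeR adjusted p = 1.13e-11). Efnb3 was a minor ephrin, between 1.06 and 1.25 CPM with the BAP1 KO label, against 1.98 and 2.35 CPM with the WT label, at -0.92 (SE 0.14, edgeR adjusted p = 1.32e-04).

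The ephrin class as a whole summed to 20.5 ± 0.379 RPKM with the BAP1 KO label, against 138 ± 5.09 RPKM with the WT label (SD, n = 3 each). Efnb2 made up 17.8% ± 0.16 of it under the BAP1 KO label and 38.3% ± 1.3 under the WT label. Efna2 accounted for 19% ± 0.98 of it under the BAP1 KO label and 0.801% ± 0.073 under the WT label, and Efna5 for 13.8% ± 0.76 of it under the BAP1 KO label and 4.33% ± 0.38 under the WT label. Efnb1 held nearly the same share, 21.5% ± 0.72 of it under the BAP1 KO label and 20.9% ± 0.67 under the WT label, while its level differed 6.64-fold. Under the WT label Efnb2 thus led by a wide margin, whereas under the BAP1 KO label Efnb1, Efna2 and Efnb2 stood close together, at 4.41, 3.90 and 3.65 RPKM, Efna2 and Efnb2 overlapping over the libraries. The sum of the keratinocyte markers was also lower, at 612 to 658 CPM with the BAP1 KO label, against 10720.0 to 10890.0 CPM with the WT label. So were the sum of the fibroblast markers and 42.1% of all tested genes. A link of any of these to the Eph receptors and ephrins was not tested.

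**Figure D3:**
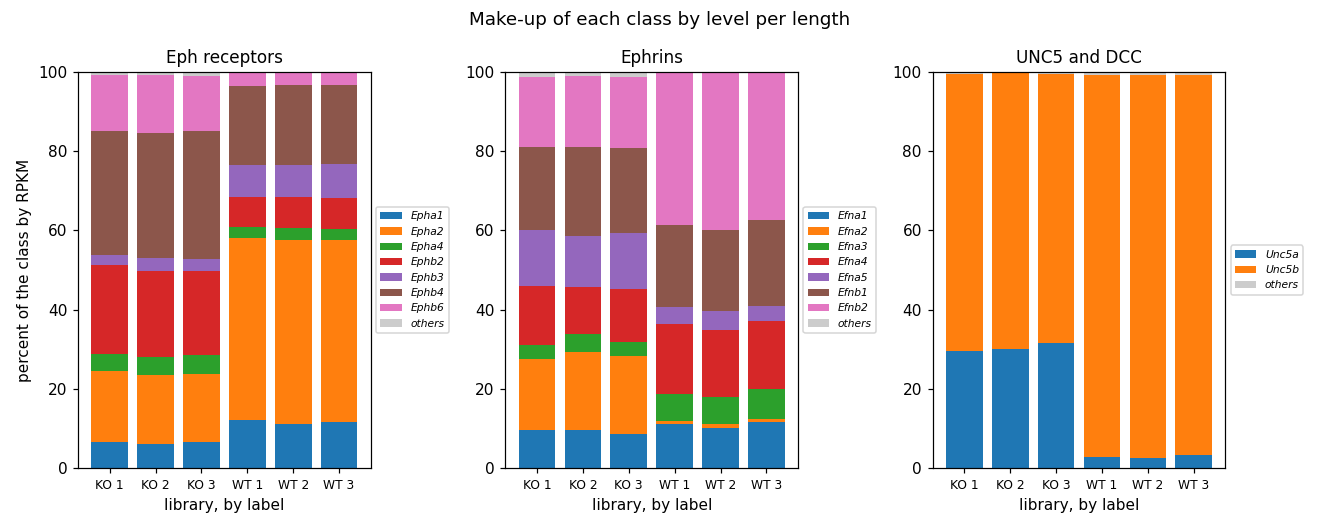
Share of each gene in the summed RPKM of the Eph receptors, the ephrins and the UNC5 and DCC receptors, 1 stacked bar per library, libraries labelled BAP1 KO left of those labelled WT, genes under 2% in every library pooled as others. Epha2, Efnb2 and Unc5b take smaller shares, and Ephb2, Efna2 and Unc5a larger ones, in all 3 libraries labelled BAP1 KO than in any labelled WT.

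SLIT ligands and ROBO receptors were read at low to moderate levels, and all 6 tested were lower under the BAP1 KO label. Robo2 and Robo3 are among the 6 and passed the filter on low counts only through the libraries labelled WT. Slit2 stood at 5.88, 6.50 and 6.33 CPM in the 3 BAP1 KO-labelled libraries, against 16.1, 17.5 and 16.4 CPM in the 3 WT-labelled ones. The log2 fold change was -1.42 (SE 0.072, edgeR adjusted p = 1.19e-08). Slit3 was read at 3.56, 3.92 and 3.54 CPM in the 3 BAP1 KO-labelled libraries, against 11.8, 11.2 and 11.3 CPM in the 3 WT-labelled ones. It differed by -1.63 (SE 0.079, edgeR adjusted p = 8.35e-09). Slit1, a ligand of the nervous system, stood at 0.485, 0.352 and 0.418 CPM in the 3 BAP1 KO-labelled libraries, against 3.31, 3.62 and 3.18 CPM in the 3 WT-labelled ones. At -3.01 (SE 0.16, edgeR adjusted p = 2.25e-08) its fold was the largest of the 3 ligands, at the lowest level. Slit2 and Slit3 together made up most of the SLIT sum under both labels.

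Robo1 was the ROBO receptor with the highest level under both labels. It was read at 21.8, 23.4 and 22.8 CPM in the 3 BAP1 KO-labelled libraries, against 50.8, 50.0 and 52.6 CPM in the 3 WT-labelled ones. Every library labelled BAP1 KO lay below every one labelled WT, and the log2 fold change was -1.17 (SE 0.049, edgeR adjusted p = 2.40e-09). It led the ROBO receptors by RPKM, their sum taken as the whole, with 98.3% ± 0.36 of it under the BAP1 KO label and 89.9% ± 0.23 under the WT label. Robo3, a divergent receptor known for commissural axons, had 6, 7 and 4 reads with the BAP1 KO label, against 101, 103 and 117 reads with the WT label. Its log2 fold change of -4.23 (SE 0.20, edgeR adjusted p = 6.09e-09) was the lowest of the 29 guidance genes tested, at under 3 CPM in every library. Robo3 passed the filter only through the libraries labelled WT, where it was higher, so its call and its rank rest on that group. Robo2 had 6, 3 and 6 reads with the BAP1 KO label, against 28, 34 and 45 reads with the WT label, at -2.82 (SE 0.31, edgeR adjusted p = 9.33e-06). The same limit holds for Robo2. Robo4, which is found mainly in endothelium, had 1, 1 and 0 reads with the BAP1 KO label, against 7, 5 and 5 reads with the WT label and was not tested. The endothelial markers Cdh5 and Tie1 were near 0 in both groups, at 0.0690 and 0.0246 CPM with the BAP1 KO label, against 0.0346 and 0.0435 CPM with the WT label, and Cldn5 had 0 reads under the BAP1 KO label. Other endothelial markers were read and did not share a direction. Vwf was higher, with 38.6 CPM with the BAP1 KO label, against 5.60 CPM with the WT label, at 2.78 (SE 0.073, edgeR adjusted p = 4.96e-11). Kdr was also higher, with 11.8 CPM with the BAP1 KO label, against 8.90 CPM with the WT label, at 0.41 (SE 0.070, edgeR adjusted p = 2.53e-04). Pecam1 was lower, with 0.265 CPM with the BAP1 KO label, against 0.439 CPM with the WT label, at -0.75 (SE 0.31, edgeR adjusted p = 0.0414).

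Of the 3 netrins, Ntn1 and Ntn4 were lower and Ntn3 did not pass the threshold. Ntn1 (chromosome 11, 68209364 to 68386826), the founding secreted netrin, was read at 5.50, 5.56 and 5.13 CPM in the 3 BAP1 KO-labelled libraries, against 46.4, 44.1 and 44.7 CPM in the 3 WT-labelled ones. It was 8.34-fold lower, at -3.06 (SE 0.060, edgeR adjusted p = 4.91e-12). Ntn4, a netrin of basement membranes that binds laminin, stood at 21.7, 20.9 and 21.0 CPM in the 3 BAP1 KO-labelled libraries, against 47.5, 48.1 and 51.3 CPM in the 3 WT-labelled ones. Its difference was smaller, at -1.21 (SE 0.051, edgeR adjusted p = 2.40e-09), and it was the most abundant netrin per length under both labels, at 8.29 RPKM under the BAP1 KO label and 18.8 RPKM under the WT label. Ntn3 was read between 0.985 and 1.21 CPM with the BAP1 KO label, against 1.29 and 1.44 CPM with the WT label. Its groups did not overlap, but the log2 fold change of -0.37 (SE 0.16, edgeR adjusted p = 0.0525) did not pass the threshold. With library totals in place of TMM it passed (edgeR adjusted p = 0.0291), and likewise without BAP1 KO replicate 1 (0.0415). Over all the alternatives run its adjusted p ranged between 0.0291 and 0.242, the highest by DESeq2.

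The UNC5 receptors went in opposite directions. Unc5a (chromosome 13, 54945151 to 55006018), a repulsive netrin receptor also named as a dependence receptor, was read at 7.95, 8.04 and 7.75 CPM in the 3 BAP1 KO-labelled libraries, against 1.38, 1.36 and 1.72 CPM in the 3 WT-labelled ones. All libraries labelled BAP1 KO stood above all labelled WT, 5.29-fold higher at 2.40 (SE 0.11, edgeR adjusted p = 4.47e-09), the highest log2 fold change of the 29. Unc5b, the UNC5 receptor of vessels and epithelia, stood at 30.0, 29.5 and 26.4 CPM in the 3 BAP1 KO-labelled libraries, against 77.8, 76.8 and 80.8 CPM in the 3 WT-labelled ones. It was 2.74-fold lower, at -1.45 (SE 0.055, edgeR adjusted p = 1.04e-09). By RPKM Unc5b still led the UNC5 and DCC receptors, with 69.2% ± 1.2 of it under the BAP1 KO label and 96.4% ± 0.31 under the WT label. Unc5a accounted for 30.4% ± 1.1 of it under the BAP1 KO label and 2.9% ± 0.31 under the WT label. Dcc, the attractive netrin receptor, was close to silent, with 6, 2 and 5 reads with the BAP1 KO label, against 18, 23 and 22 reads with the WT label, and was lower at -2.27 (SE 0.36, edgeR adjusted p = 1.67e-04). It passed the filter on low counts only through the libraries labelled WT, where it was higher. Unc5c had 4, 2 and 4 reads with the BAP1 KO label, against 9, 6 and 6 reads with the WT label, and Unc5d had 1, 2 and 3 reads with the BAP1 KO label, against 5, 5 and 11 reads with the WT label; neither was tested.

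Genes of the signalling lists, which hold partners of the guidance receptors and some relatives of their ligands, were called in both directions. So were all tested genes, of which 39.4% were higher and 42.1% lower. The shares in each of the 3 partner lists are to be read against these, and a split in both directions is no result about a list. Of 24 Eph signalling genes tested, 11 were higher, 12 lower and 1 did not pass the threshold, with a median log2 fold change of -0.10. Adam10, the metalloprotease that sheds ephrins, stood at 1243 ± 30.9 CPM with the BAP1 KO label, against 423 ± 57.7 CPM with the WT label (SD, n = 3 each), a log2 fold change of 1.55 (SE 0.080, edgeR adjusted p = 1.41e-08). The adaptor genes Grb10 and Anks1 were also higher, at 1.60 and 0.92. Among the lower genes, Ptpn13, a tyrosine phosphatase that acts on ephrin-B, stood at 59.5 ± 1.39 CPM with the BAP1 KO label, against 788 ± 21.7 CPM with the WT label, a log2 fold change of -3.73 (SE 0.041, edgeR adjusted p = 1.46e-13). The exchange factors Vav3 and Tiam1 were lower at -3.60 and -3.09.

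For SLIT and ROBO, 15 partner genes were tested, of which 7 were higher and 6 lower, while 2 missed the threshold (median -0.06). Dag1, whose product dystroglycan binds SLIT proteins, stood at 1163 ± 30.5 CPM with the BAP1 KO label, against 513 ± 3.34 CPM with the WT label, at 1.18 (SE 0.033, edgeR adjusted p = 8.35e-11). Arhgap39, a GTPase-activating protein that binds ROBO, was higher at 1.46, and so was the heparan sulfate proteoglycan gene Gpc1 at 0.95, of whose exons 18.9% overlap Ankmy1 on the other strand. Srgap3, a GTPase-activating protein of the SLIT-ROBO pathway, was lower at -3.29 (SE 0.063, edgeR adjusted p = 4.49e-12). Enah, an actin regulator, and Flrt3, a coreceptor of ROBO1, were lower at -2.25 and -1.76.

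Of 15 netrin partner genes tested, 8 were higher and 7 lower (median 0.40). The membrane-anchored netrin-G genes Ntng1 and Ntng2, listed as relatives of the netrins, were higher, at 2.44 (SE 0.088, edgeR adjusted p = 6.81e-10) and 2.32 (SE 0.082, edgeR adjusted p = 5.61e-10). The secreted netrins Ntn1 and Ntn4 were lower. Of the exons of Ntng2, 14% overlap 6530402F18Rik on the same strand. Rgma, a ligand of neogenin, was higher at 1.50. Flrt2, a ligand of UNC5 receptors, and Ablim1, an actin-binding protein, were lower at -2.58 and -2.47, and Mcam, a surface protein of melanoma and vessels reported to bind netrin-1, at -0.48. Neo1, the neogenin receptor that is the close relative of DCC, was looked up outside the naming rule and stood at 159.8 ± 1.20 CPM with the BAP1 KO label, against 108 ± 2.08 CPM with the WT label, a log2 fold change of 0.57 (SE 0.037, edgeR adjusted p = 9.69e-08).

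**Figure D4:**
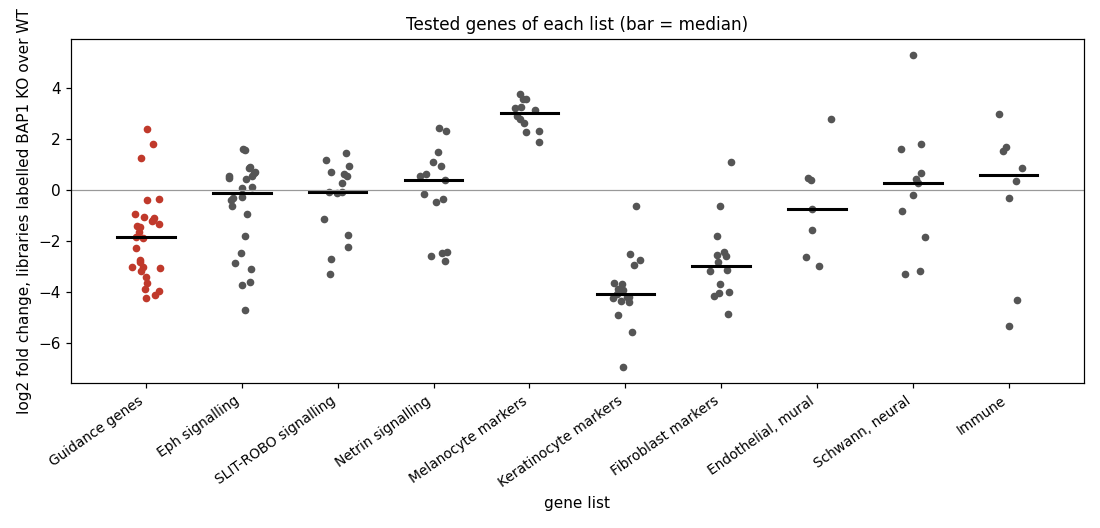
Log2 fold change of each tested gene, libraries labelled BAP1 KO over those labelled WT, for the guidance genes, the lists of signalling partners and the cell type markers, with a bar at each median. The guidance genes have a median of -1.82, the keratinocyte markers -4.09, the fibroblast markers -2.96 and the melanocyte markers 3.01, and the partner lists lie on both sides of 0.

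The other cell type lists had genes called in both directions, as had all tested genes (39.4% higher and 42.1% lower), and nothing is read from their counts. Of 7 endothelial and mural markers tested, 3 were higher and 4 lower, summing to 153 to 166 CPM with the BAP1 KO label, against 373 to 403 CPM with the WT label. Most of the WT sum was Acta2, at 54.5 CPM with the BAP1 KO label, against 331 CPM with the WT label. Of 11 Schwann cell and neural markers, 5 were higher and 5 lower, summing to 2085 to 2137 CPM with the BAP1 KO label, against 967 to 1032 CPM with the WT label. Of 8 immune markers, 5 were higher and 3 lower, summing to 227 to 236 CPM with the BAP1 KO label, against 62.6 to 69.1 CPM with the WT label, with Cd3e at 0 reads under the BAP1 KO label. Most of the BAP1 KO sum was Lyz2, at 177 CPM, against 22.6 CPM with the WT label. Cd14, among the 3 lower, stood at 0.686 CPM with the BAP1 KO label, against 13.7 CPM with the WT label. Their part in the differences of the guidance genes was not tested.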

How the data were processed

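The 6 files, 1 per library, were used. Each holds, per the file headers, the count of reads uniquely aligned to a gene model and an RPKM adjusted by the authors with a size factor. Per the labels' protocols the libraries were unstranded TruSeq RNA v2 preparations read as single-end 50-base reads; the submitters' processing notes name GSNAP and GRCm38, and no source used here gives the counting tool or annotation. Of 36528 gene models, 85.2% were named through the RefSeq gene table of GRCm38.p6 or GENCODE M21. Deposited counts were filtered with filterByExpr (minimum count 10, minimum total 15), scaled by TMM (0.975 to 1.03) and tested over 17121 genes with edgeR 4.0.16 (glmQLFTest, no covariate) in R 4.3.3, Benjamini-Hochberg adjusted over all of them. Each SE was taken from the log2 fold change and its F statistic. The deposited RPKM served only for levels per length. Exon overlap came from GENCODE M21 with Python 3.11.15.

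Members and lists were chosen with earlier results of these data known. Named in full were members with at least 5 CPM in the higher group or an absolute log2 fold change of at least 2; of each partner list, up to 3 called genes per direction with at least 5 CPM in the higher group. Libraries of a group differed beyond counting noise. Chi-square over degrees of freedom was 2.01 to 4.1 between libraries labelled BAP1 KO and 3.91 to 17.4 between those labelled WT, highest for WT replicates 2 and 3. Tests were tried on simulated counts.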

Additional observations from a re-analysis of the deposited data

How the results depend on the processing

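Results were recomputed in edgeR with the size factors of DESeq2, with plain library totals and with the authors' own library factors, with no filter on low counts and with 5 CPM in 3 libraries as the minimum, in DESeq2 1.42.0 and by voom of limma 3.58.1, and without each library. Over the members tested, 367 values kept their direction and their side of the threshold, none reversed, and the 2 exceptions were those of Ntn3 given above. Eph receptors called higher numbered 2 with no filter and 0 with at least 5 CPM, against 1, and 1 to 2 when 1 library was left out. The added gene was Epha5 (edgeR adjusted p = 0.00507 with no filter). It was called also without BAP1 KO replicate 1 (0.00303), WT replicate 1 (0.0124), WT replicate 2 (0.0168) or WT replicate 3 (0.0108). With a library left out, Epha5 passed the filter in these settings alone, and only through libraries labelled BAP1 KO, where it was higher. Its calls there are thus no separate support. SLIT and ROBO genes called lower numbered 3 with at least 5 CPM, which keeps fewer genes, against 6. Without a filter Robo4 (adjusted p = 0.00608) and Unc5d (0.0269) were also lower. Scaling moved the median of all genes from -0.03 to between -0.09 and 0.00 on the log2 scale. No paired analysis was possible because the labels give no replicate numbers; those used here follow accession order within a group and pair nothing. The 8 untested genes had at most 16 reads in any library, so counting error limits their values.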

Other observations

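Efna1, Efna3 and Efna4 lie in a row on chromosome 3, within 66299 bases on GRCm38 and on the same strand, and were lower by similar amounts under the BAP1 KO label, at -3.00, -3.64 and -3.15 on the log2 scale. This stretch was looked at after those values were seen. The non-coding gene Gm34014, whose annotated end meets Efna3, was lower too, at -3.80 (SE 0.12, edgeR adjusted p = 2.73e-10). The library kit does not mark strand, so this value may not be fully separate from that of Efna3. Gm15998, a non-coding gene within the span of Efna3, was lower by less, at -1.12 (SE 0.36, edgeR adjusted p = 0.0139). It was read at 0.234 CPM with the BAP1 KO label, against 0.511 CPM with the WT label. The coding genes within 20000 bases on either side differed far less and not in 1 direction. On the Efna1 side, Slc50a1, a sugar transporter, and Dpm3, a subunit of dolichol-phosphate mannose synthase, were higher at 0.79 and 0.63. On the Efna4 side, Adam15, a metalloprotease, and Dcst2 were lower at -0.20 and -0.38, and Dcst1 did not pass the threshold (-0.24, edgeR adjusted p = 0.219). Efna2, on chromosome 10, was the A ephrin that rose.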
